A study of Mus musculus with 4 samples.

Results

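Transcripts of the machinery of cell division were followed in mouse thymus through 81 of the 29536 genes on a bead array, read by 163 of its 45281 probes. In this and later gene counts, a name without a single RefSeq match counts as a gene of its own, and 76.8% of probes were matched. The 81 genes were chosen by array name alone. The name began with KIF, CENP, CDCA, BUB, AURK, CCNB or NUSAP, or was that of a single mitotic gene such as Plk1, Cdc20, Birc5 or Cdk1 (listed as CDC2A). The naming rule reads no measured value, but it was set with earlier results of these data known. Because it goes by name, it also takes in Cenpj, a centriole protein, and 25 genes grouped here as transport and other kinesins. Most of those are cargo or ciliary motors or their relatives, but Kif24 acts at centrioles and Stard9 (listed as KIF16A) at spindle poles. The remaining 55 genes are called cell-division genes here.

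RNA of whole thymus came from C57BL/6 mice of 2 genotypes, a miR-181d transgenic line (Tg-8) and a miR-181d knockin (KI) line, with 2 arrays each. The labels give neither the promoter of the transgene nor the structure of the knockin allele. They also give no age or sex, and they do not say whether the arrays of a genotype came from separate mice, so p-values measure only the spread between these arrays. Both groups carry an altered miR-181d gene, and each value places one line against the other, since no wild-type sample was used here. The transgene and knockin concern this microRNA, whose mature form is shown because it is the agent that defines the groups. It lies at chr8:84178759-84178781 (GRCm38.p6, minus strand, RefSeq), and capitals mark the seed, bases 2 to 8.
mmu-miR-181d-5p: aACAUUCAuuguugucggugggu

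Entry into mitosis is driven by Cdk1 with cyclin B and by the Polo and Aurora kinases. Kinetochores then tie chromosomes to spindle microtubules, a checkpoint holds the anaphase-promoting complex until all are attached, and motor kinesins build the spindle and the cleavage furrow. In the thymus, division is heaviest in early progenitors and in the burst that follows the pre-T cell receptor signal, while most double-positive thymocytes are resting. Many genes of this programme are transcribed in G2 and M phase through a promoter element called CHR, bound by the DREAM and MuvB-FOXM1 complexes, and through CCAAT boxes bound by NF-Y.

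Many cell-division genes held the letters of these elements in their promoters. RefSeq promoter windows (250 bases before to 50 after the start, GRCm38.p6, the first listed window of each gene) were matched by symbol for 47 of the 55 genes. The CHR letters TTTGAA were searched on both strands, and 26 of the 47 windows held them (55.3%), against 18.1% of all 27025 windows. Among transport and other kinesins 2 of 19 windows held them (10.5%). The letters CCAAT, on either strand, stood in 31 of the 47 windows (66.0%) and in 37.9% of all windows, and both elements stood together in 46.8% against 7.1%. The variant TTTAAA stood in 21.3% of the 47 windows and 13.2% of all. TTTGAA stood in 29 of 61 windows of other mitosis genes (47.5%) and in 4 of 40 windows of DNA replication genes (10.0%), whereas CCAAT stood in 60.0% of the replication windows. A match describes these letters and is not a tested binding site.

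**Figure D1:**
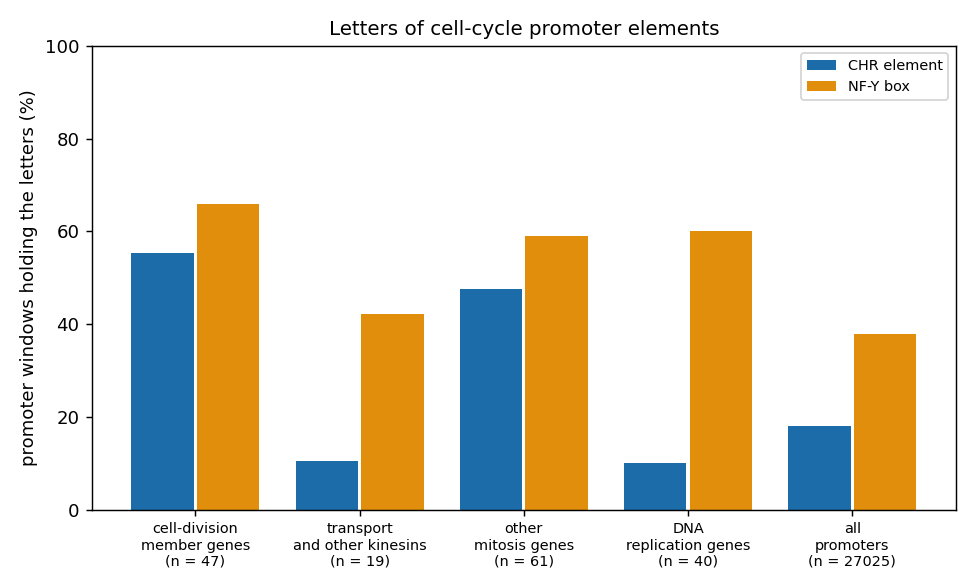
Bars give the percentage of promoter windows that hold the CHR letters (blue) or the NF-Y box letters (orange) in each gene set, with the number of windows below. CHR letters stand in 55.3% of windows of cell-division genes and in 10.5% of those of transport and other kinesins.

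In the windows below, capitals mark the letters of the CHR, its variant and the CCAAT box, on either strand. 5 windows are shown, picked by name from the genes whose array values are described below. They lie at chr4:124936868-124937167, minus strand (Cdca8), chr7:122159185-122159484, plus strand (Plk1), chr4:118437294-118437593, minus strand (Cdc20), chr9:61946750-61947049, minus strand (Kif23) and chr13:100786437-100786736, minus strand (Ccnb1). The first 4 hold the CHR letters. The Ccnb1 window holds CCAAT boxes and the CHR variant only, and in the Cdca8 window the CHR letters overlap a CCAAT box on the opposite strand. The 5 do not stand for all described genes, since windows of others, such as Birc5, Cenpb and Nusap1, hold neither TTTGAA nor CCAAT.
Cdca8: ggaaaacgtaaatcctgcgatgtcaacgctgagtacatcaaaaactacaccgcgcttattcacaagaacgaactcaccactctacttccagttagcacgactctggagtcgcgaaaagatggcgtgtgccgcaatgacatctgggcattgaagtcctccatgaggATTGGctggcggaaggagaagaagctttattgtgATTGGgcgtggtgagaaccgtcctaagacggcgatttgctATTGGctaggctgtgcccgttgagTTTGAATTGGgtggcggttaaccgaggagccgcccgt
Plk1: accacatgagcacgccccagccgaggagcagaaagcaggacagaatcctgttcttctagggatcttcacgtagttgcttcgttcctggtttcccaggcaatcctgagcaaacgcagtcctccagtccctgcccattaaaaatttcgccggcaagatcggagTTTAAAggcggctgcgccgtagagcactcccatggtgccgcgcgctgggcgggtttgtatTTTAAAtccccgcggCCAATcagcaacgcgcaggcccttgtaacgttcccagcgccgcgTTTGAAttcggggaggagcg
Cdc20: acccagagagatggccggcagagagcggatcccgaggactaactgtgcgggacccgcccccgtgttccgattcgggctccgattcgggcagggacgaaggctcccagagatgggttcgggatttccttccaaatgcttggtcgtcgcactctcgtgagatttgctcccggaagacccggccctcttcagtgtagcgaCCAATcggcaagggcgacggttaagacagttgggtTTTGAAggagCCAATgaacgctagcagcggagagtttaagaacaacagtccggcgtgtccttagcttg
Kif23: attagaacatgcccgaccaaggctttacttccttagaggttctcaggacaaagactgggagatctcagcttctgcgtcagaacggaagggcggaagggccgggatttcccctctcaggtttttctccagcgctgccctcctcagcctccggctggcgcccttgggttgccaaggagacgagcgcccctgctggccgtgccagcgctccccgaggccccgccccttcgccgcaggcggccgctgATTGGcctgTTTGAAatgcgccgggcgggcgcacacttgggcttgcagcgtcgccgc
Ccnb1: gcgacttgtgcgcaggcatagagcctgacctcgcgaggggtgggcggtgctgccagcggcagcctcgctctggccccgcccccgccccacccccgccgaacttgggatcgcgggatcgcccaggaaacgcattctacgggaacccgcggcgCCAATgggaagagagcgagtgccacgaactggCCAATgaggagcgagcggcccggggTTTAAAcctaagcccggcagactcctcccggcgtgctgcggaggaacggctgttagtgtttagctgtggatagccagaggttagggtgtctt

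Each array gives an average bead signal per probe, with medians of 140.5 to 145.8, and a background band was set on each array from its most common signal. Between 43.7% and 46.8% of all probes exceeded it. Values below are normalised log2 intensities, in which background ends at 6.34 to 6.40. They compare one probe between arrays and not one gene with another. All 20 thymocyte markers, among them Cd3e, Rag1 and Ptcra, were above background on all 4 arrays. Knockin replicate 2 carried a male pattern of sex-linked transcripts and the other arrays a female one, with Xist at 5.98 on that array and at 12.03 to 12.21 elsewhere. Transcripts of granulocytes and their precursors had a median of -1.10 (transgenic minus knockin) over 11 genes, 3 of them passing the test. Erythroid genes had a median of -0.317 over 5 genes, macrophage genes -0.086 over 12, early cycling thymocyte genes -0.103 over 11 and thymocyte markers -0.031 over 20, none of them passing. The part of these cell types or of the male array in the values below was not tested. In whole tissue, fewer cells of a type and less RNA per cell cannot be told apart.

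Of the 163 probes 84 were above background on all 4 arrays, 18 on some and 61 on none. With the brightest probe standing for each gene, 54 genes were above background on all 4 arrays, 40 of them cell-division genes, 13 transport and other kinesins, and Cenpj. The 18 genes above background on no array included Ccnb2, Nek2, Bub1, Cenpe, Nuf2 (listed as CDCA1) and Kif20a, which are mitotic genes, and Aurkc, Ccnb3 and Kif5a, known from germ cells or neurons. A dim probe limits what can be said and does not show that a transcript was missing. Probes of Bub1 (2), Nek2 (3) and Kif20a (2) were all below the band.

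The comparison asks which of these transcripts differ between transgenic and knockin thymus. None of the 163 probes passed at a Benjamini-Hochberg adjusted p under 0.05 by limma, where 36 of all 45281 probes did (0.0795%). At an unadjusted p under 0.05 there were 10 (4 with values above 0 and 6 below, transgenic minus knockin), which is 6.13% of the probes, against 4.63% over the whole array. These were probes of Cdca8, Cenpj, Cenpb, Kif23, KIFC5A, Plk1, Espl1, Cdc20 and, among dimmer probes, Kif13a (above background on 3 arrays) and Kif1c (on none). The smallest adjusted p of any member was 0.23. The largest difference in size was log2 0.54. On the normalised scale the 95% interval of all 54 genes above background lay between log2 -1 and 1, short of a 2-fold difference. That scale compresses differences of dim probes, so for genes close to background these intervals do not exclude a 2-fold difference in transcript. The value of Cenpj, for example, was -0.33 here, -0.45 with the smaller offset of 16 and -0.21 without background correction. For 41 of the 54 the interval lay within 0.5 on either side of 0. Over all 12558 genes above background, 12437 intervals lay between -1 and 1, and 10541 lay within 0.5. Narrow intervals were thus not particular to the members.

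**Figure D2:**
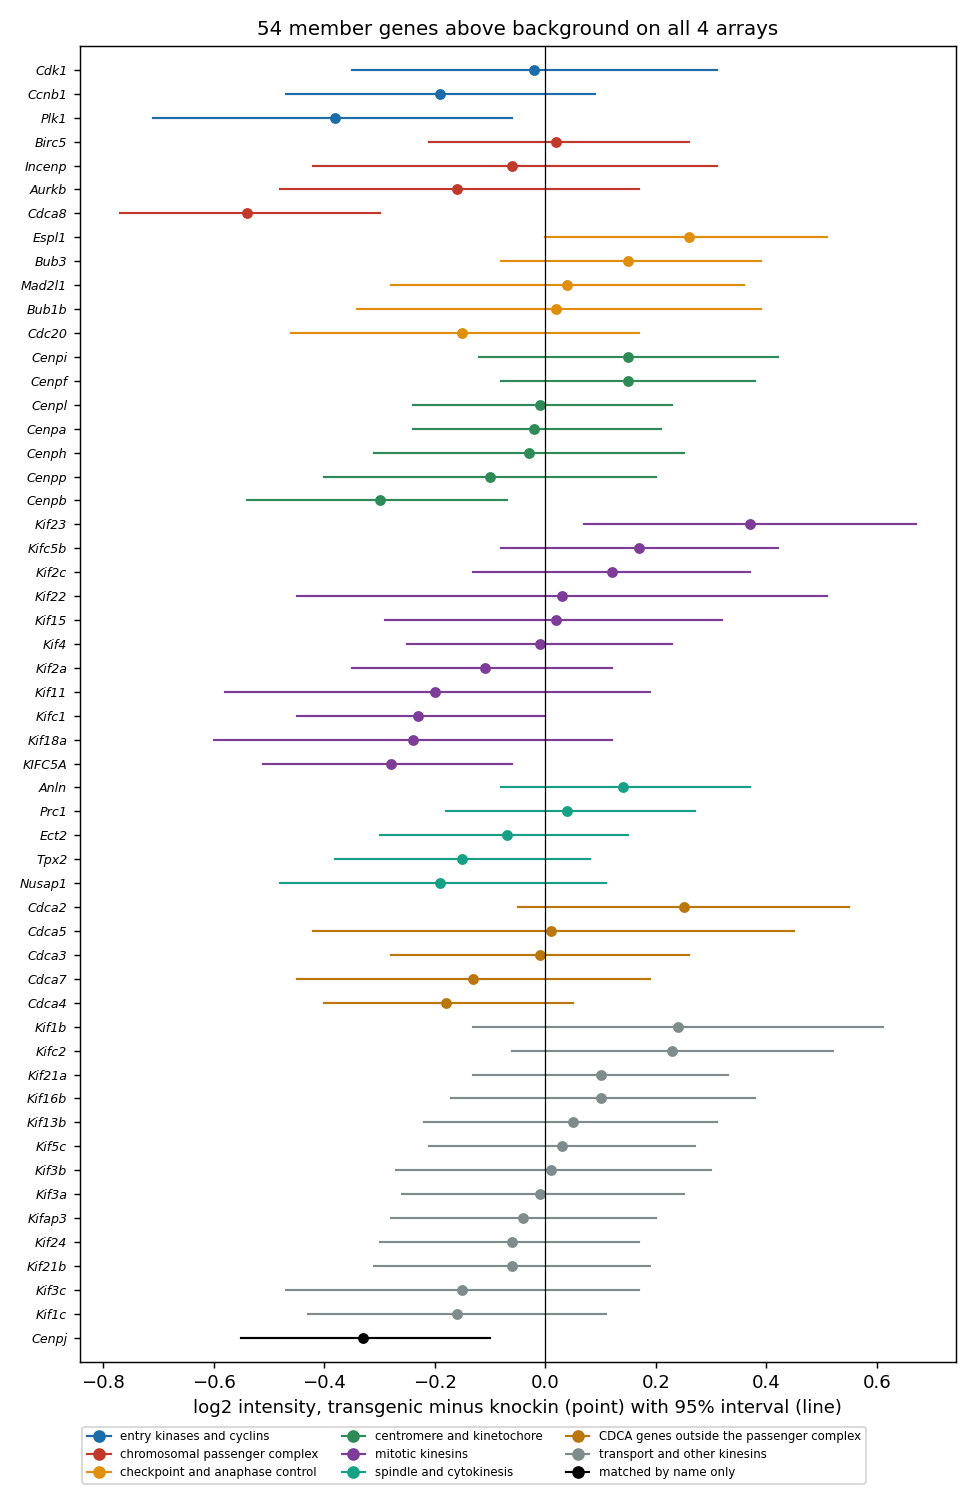
Points give the log2 difference, transgenic minus knockin, for the 54 member genes above background on all 4 arrays, and lines its 95% limma interval, coloured by role. All intervals lie between -1 and 1, and the farthest point from 0 is Cdca8 at -0.54.

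Over the 40 cell-division genes the median difference was -0.018, with 16 values above 0 and 24 below, and over all 12558 genes above background it was 0.003. It turned to 0.032 without transgenic replicate 1, and it was -0.086 without knockin replicate 1 and -0.079 with median scaling. The 2 arrays of 1 genotype were often farther apart than the genotypes. For 67.5% of the 40 genes the gap between replicates, in one genotype or the other, exceeded the difference between the genotype means, as it did for 79.9% of all genes. The median gap was 0.20 between the transgenic arrays and 0.10 between the knockin arrays. Groups did not overlap for 17 of the 40 (42.5%), against 30.4% of all genes above background. The share was lower in the related sets, at 15.8% for other mitosis genes and 10.9% for DNA replication genes. These shares were not compared by a test.

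**Figure D3:**
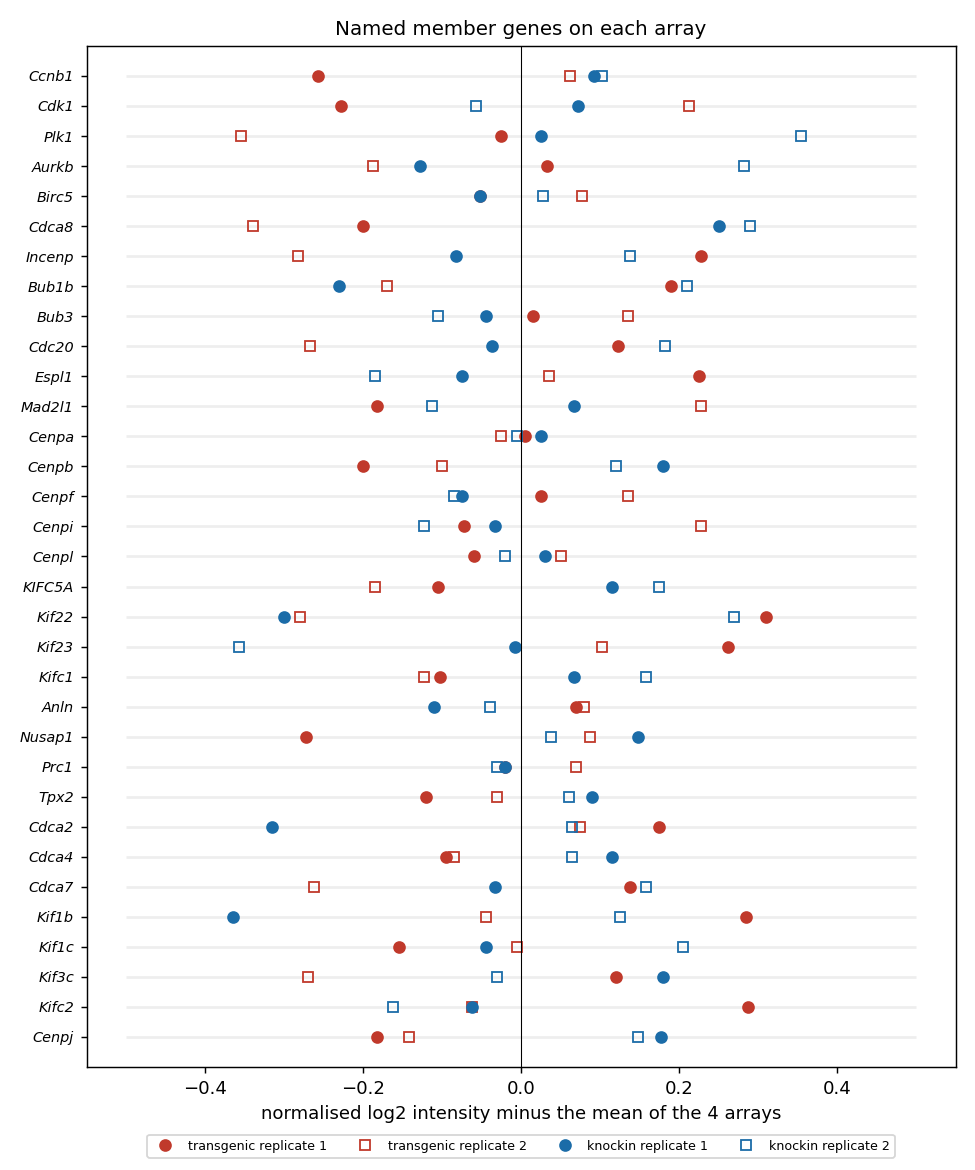
Each row is a member gene named by the rule, and symbols give its normalised log2 intensity on each array minus the mean of the 4 arrays (red transgenic, blue knockin, filled replicate 1, open replicate 2). For Kif22 and Bub1b the 2 arrays of each genotype lie far apart, and for Cdca8 both transgenic arrays lie below both knockin arrays.

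The kinases and cyclins of mitotic entry gave 3 genes above background on all arrays of 7, none passing the test, with a median of -0.191. That median was -0.028 without transgenic replicate 1 and -0.019 with dim probes included. Plk1, the Polo kinase that acts at centrosomes and kinetochores, read 10.04 and 9.71 in transgenic and 10.09 and 10.42 in knockin thymus. Both transgenic arrays were the lower ones, but transgenic replicate 1 lay within 0.1 of knockin replicate 1. The difference was log2 -0.38 (SE 0.146, 95% interval -0.71 to -0.06, limma adjusted p = 1), and it ran from -0.55 to -0.22 when single arrays of either genotype were left out.

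Cdk1, the kinase at the head of mitosis, read 10.76 and 11.20 in transgenic and 11.06 and 10.93 in knockin thymus. The knockin arrays lay between the transgenic ones, and the difference was log2 -0.02 (interval -0.35 to 0.31). Ccnb1, its cyclin partner, read 10.54 and 10.86 against 10.89 and 10.90, a difference of -0.19 (interval -0.47 to 0.09). Only transgenic replicate 1 stood apart for Ccnb1, and it was also the lowest array on the second Ccnb1 probe and for Cdk1. Ccna2, cyclin A of S and G2 phase, was above background on only 2 arrays, with a value of -0.15.

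The chromosomal passenger complex, in which Aurora B kinase is held at centromeres by Incenp, survivin and borealin, held the smallest p of the members. Of its 5 genes 4 were above background on all arrays, with a median of -0.107 that ran from -0.291 without transgenic replicate 1 to 0.05 without knockin replicate 2. Cdca8, which encodes borealin, read 9.01 and 8.87 in transgenic and 9.46 and 9.50 in knockin thymus. The groups were well separated, with a gap larger than the distance within either group. The difference was log2 -0.54 (SE 0.105, interval -0.77 to -0.30, limma adjusted p = 0.23), a fold of 1.45 that did not pass over all probes. Leaving out each array in turn or changing the processing kept the value between -0.61 and -0.47. It passed in 1 of 11 alternative fits, a block of crossed replicate numbers chosen after seeing the data (limma adjusted p = 0.00632), and in the others the adjusted p ran from 0.209 to 1.

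The partners of borealin did not share this separation. Aurkb read 9.66 and 9.44 against 9.50 and 9.91 (log2 -0.16, interval -0.48 to 0.17), and Incenp read 10.13 and 9.62 against 9.82 and 10.04 (log2 -0.06, interval -0.42 to 0.31). In both genes the transgenic and knockin values overlapped. Birc5, which encodes survivin, read 11.84 and 11.97 against 11.84 and 11.92, and its 3 probes gave 0.02, -0.01 and 0.13. No test compared Cdca8 with its partners.

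Genes of the spindle checkpoint and of anaphase control had 5 of 7 above background on all arrays, none passing, and a median of 0.042. It was 0.158 without transgenic replicate 1 and -0.018 with median scaling. Bub1b (BubR1) and Mad2l1, which belong with Cdc20 to the checkpoint complex, had values of 0.02 (interval -0.34 to 0.39) and 0.04 (interval -0.28 to 0.36). Bub1b read 11.82 and 11.46 in transgenic and 11.40 and 11.84 in knockin thymus, and Mad2l1 read 10.94 and 11.35 against 11.19 and 11.01. Each gene had its extremes within the same genotype, and second probes gave 0.21 for Bub1b and -0.13 for Mad2l1.

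Cdc20, the activator of the anaphase-promoting complex, was read by 4 probes, all above background. Its brightest probe read 11.18 and 10.79 in transgenic and 11.02 and 11.24 in knockin thymus, and the 4 differences were -0.15, -0.23, -0.23 and -0.37. Transgenic replicate 2 was the lowest and knockin replicate 2 the highest array on every one of the 4, and the dimmest probe alone had an unadjusted p under 0.05 by limma (adjusted p = 1). Probes of one gene share its transcript and are not replicates.

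Espl1, the separase that cuts cohesin, read 8.64 and 8.45 in transgenic and 8.34 and 8.23 in knockin thymus. Both transgenic arrays were the higher ones, with a difference of 0.26 (SE 0.112, limma adjusted p = 1). Bub3, a partner of Bub1 and BubR1, read 8.74 and 8.86 against 8.68 and 8.62, a value of 0.15 (interval -0.08 to 0.39). Ttk, the Mps1 kinase that starts checkpoint signalling, was above background on 1 array.

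Centromere and kinetochore genes gave 7 of 11 above background on all arrays, none passing, with a median of -0.017 that ran from -0.066 without transgenic replicate 2 to 0.063 without transgenic replicate 1. Cenpa, the histone H3 variant that marks the centromere, read 13.19 and 13.16 in transgenic and 13.21 and 13.18 in knockin thymus. These 4 values lay within 0.05 of each other, and the difference was -0.02 (interval -0.24 to 0.21). Cenpb, which binds a motif of centromeric satellite DNA, read 9.01 and 9.11 against 9.39 and 9.33, without overlap (log2 -0.30, SE 0.104, limma adjusted p = 0.941).

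Cenpf, a large kinetochore protein of G2 and M phase, read 7.08 and 7.19 against 6.98 and 6.97 (log2 0.15, interval -0.08 to 0.38). Cenpl, of the constitutive centromere network, had a value of -0.01 (interval -0.24 to 0.23). The X-linked Cenpi, of the same network, read 8.33 and 8.63 in transgenic and 8.37 and 8.28 in knockin thymus, where the male array read 8.28. Its 2 probes gave 0.15 and 0.19.

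Mitotic kinesins gave 11 of 15 genes above background on all arrays, none passing, with a median of -0.010 that ran from -0.118 without transgenic replicate 2 to 0.064 without transgenic replicate 1. Kif23 (MKLP1), which bundles microtubules at the midzone for cytokinesis, had the highest value of all members. It read 12.01 and 11.85 in transgenic and 11.74 and 11.39 in knockin thymus, without overlap (log2 0.37, SE 0.132, interval 0.07 to 0.67, limma adjusted p = 0.98). Its 2 dimmer probes gave 0.12 and 0.14, and without knockin replicate 2, which had the lowest Kif23 reading and is the male array, the value was 0.20.

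Kif22, the chromokinesin Kid, read 11.35 and 10.76 in transgenic and 10.74 and 11.31 in knockin thymus. The arrays formed a high and a low pair with 1 of each genotype, and the difference was 0.03 with the largest standard error of the members (0.213). Kif11, the motor that pushes spindle poles apart, had a value of -0.20 (interval -0.58 to 0.19), Kif4 a value of -0.01 and Kif2c, a microtubule depolymerase of the centromere, a value of 0.12. These were all within the spread of the arrays.

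The minus-end kinesin Kifc1 read 8.37 and 8.35 against 8.54 and 8.63 (log2 -0.23, interval -0.45 to 0.00). The probe listed as KIFC5A, a name that matched several related genes, read 8.89 and 8.81 against 9.11 and 9.17 (log2 -0.28, SE 0.102, limma adjusted p = 0.989). Neither set overlapped on these probes, but a dimmer Kifc1 probe gave -0.18 with overlapping groups. Kifc5b had a value of 0.17 in the other direction, at 6.93 and 6.73 against 6.63 and 6.70, close to background. These are close relatives whose probes may share signal, so the single names are uncertain. Kif18a, which dampens chromosome oscillation, had 2 probes above background with opposite values, -0.24 and 0.23, the widest disagreement among the 21 genes with several such probes. The Kif18a probe at 0.23 was close to background, at 6.77 and 6.78 against 6.65 and 6.44. In 10 of those 21 genes the probes differed in sign, a count that takes in small values and probes close to background.

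Spindle assembly and cytokinesis genes were above background on all arrays in 5 of 5, none passing, with a median of -0.071. It was -0.004 without transgenic replicate 1 and -0.001 when the probes of each gene were averaged. Prc1, which crosslinks midzone microtubules, read 12.50 and 12.59 in transgenic and 12.50 and 12.49 in knockin thymus (log2 0.04, interval -0.18 to 0.27). Anln, the furrow scaffold anillin, had a value of 0.14 (interval -0.08 to 0.37), Tpx2, an activator of Aurora A, a value of -0.15 (interval -0.38 to 0.08), and Ect2, the exchange factor for RhoA, a value of -0.07. Nusap1, which bundles spindle microtubules, read 11.32 and 11.68 against 11.74 and 11.63 (log2 -0.19, interval -0.48 to 0.11), with transgenic replicate 1 as the low array. Its other probe above background on all arrays gave 0.18.

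Of the remaining CDCA genes 5 of 5 were above background on all arrays, none passing, with a median of -0.012 that ran from -0.177 without transgenic replicate 1 to 0.071 without transgenic replicate 2. Cdca2 (Repo-Man), which brings a phosphatase to anaphase chromatin, read 10.18 and 10.08 against 9.69 and 10.07, so only knockin replicate 1 was low (log2 0.25, interval -0.05 to 0.55). Cdca4 read 11.88 and 11.89 against 12.09 and 12.04 (log2 -0.18, interval -0.40 to 0.05), and the other probes of the gene gave 0.14 and -0.11, each without overlap. Cdca7, a chromatin protein known as a Myc target, had a value of -0.13, Cdca5, the cohesin protector sororin, a value of 0.01 and Cdca3 a value of -0.01.

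Transport and other kinesins were set beside the mitotic kinesins as relatives by name. None of the 13 above background on all arrays passed, their median was 0.012 and their values ran from -0.16 to 0.24. Over the single arrays left out the median ran from -0.034 without knockin replicate 2 to 0.071 without transgenic replicate 2. The groups did not overlap for 2 of the 13 (15.4%), Kifc2 and Kif21a, against 30.4% of all genes above background. Kif1b, a carrier of mitochondria and synaptic vesicle precursors, read 9.22 and 8.89 in transgenic and 8.57 and 9.06 in knockin thymus (log2 0.24, interval -0.13 to 0.61), and Kifc2 had a value of 0.23 (interval -0.06 to 0.52). Kif3a and Kif3b, the motor subunits of kinesin-2, had values of -0.01 and 0.01, and their partner Kifap3 a value of -0.04, while second probes of these genes gave 0.17, 0.16 and 0.15. Kif1c and Kif3c had values of -0.16 and -0.15, with overlapping groups, but a second Kif3c probe, at 7.17 and 6.99 against 6.93 and 6.90, gave 0.17 without overlap. Cenpj read 6.76 and 6.80 against 7.12 and 7.09, close to background (log2 -0.33, SE 0.100, limma adjusted p = 0.813).

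**Figure D4:**
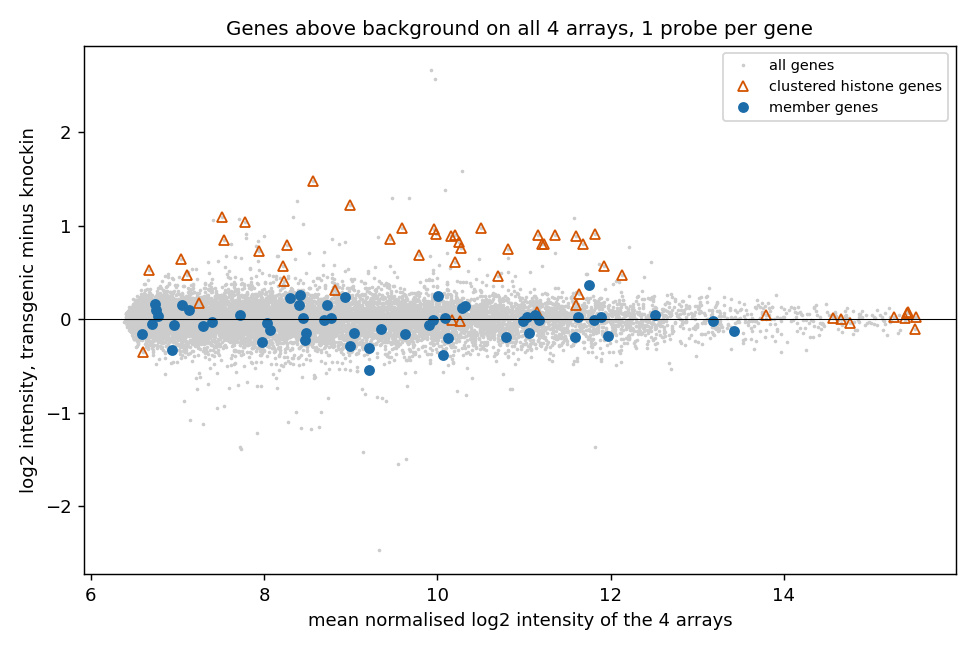
Grey dots are genes above background on all 4 arrays, 1 probe each, with mean normalised log2 intensity on the horizontal axis and log2 difference, transgenic minus knockin, on the vertical axis. Member genes (blue) lie between -0.54 and 0.37, while clustered histone genes (orange triangles) reach 1.48.

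Other mitosis genes, outside the naming rule, were set beside the members. Of 77 genes in that list, 57 were above background on all arrays, none passed in either direction, and the median was -0.020 (range -0.44 to 0.26). The smallest p belonged to Stmn1, which encodes the microtubule destabiliser stathmin, at 8.76 and 8.79 against 8.98 and 9.45 (log2 -0.44, SE 0.147, limma adjusted p = 0.919). Mad1l1, the partner of Mad2, had a value of -0.29 (interval -0.54 to -0.04). Cdc26, a subunit of the anaphase-promoting complex, was above background on 1 array, with a value of -0.33.

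DNA replication genes, which are transcribed before S phase, had a median of -0.059 over 46 genes above background on all arrays, with 33 values below 0 and none passing. E2f1, the transcription factor of S-phase entry, read 9.52 and 9.42 against 9.86 and 9.95 (log2 -0.44, SE 0.104, limma adjusted p = 0.484). Cdt1, a licensing factor, had a value of -0.43 (limma, adjusted p = 0.60) and Dut, which removes dUTP, a value of -0.28. The replication median was 0.045 without knockin replicate 2 and -0.174 without knockin replicate 1.

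Clustered histone genes, whose transcripts are made during S phase, had a median of 0.628 over 52 genes above background on all arrays, 47 of them with values above 0. That median was 0.84 without transgenic replicate 1, 0.422 without transgenic replicate 2 and 0.469 with dim probes included. It also takes in very bright H2A genes with small values, such as H2ac19 (0.02) and H2ac23 (-0.1). H4c4, H4c8 and H2bc11 passed the test, with log2 differences of 1.48, 0.98 and 0.81 (limma adjusted p = 0.016, 0.045 and 0.0418). Of the 52 values 30 exceeded 0.5 in size, against 1 of 54 for the member genes. Over all 12558 genes above background 164 did, so the member count lay near the share over all genes. These histone genes are near-identical copies that can share signal. On the same arrays the medians of cell-division and replication genes were -0.018 and -0.059. The difference between these gene groups was not tested.

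**Figure D5:**
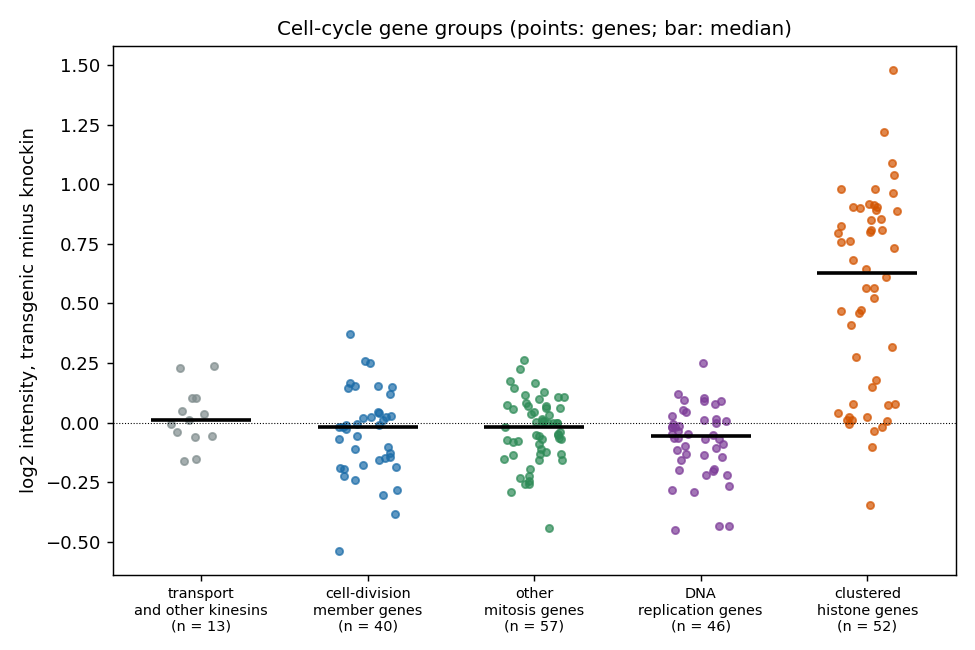
Points are genes above background on all 4 arrays and bars are medians of the log2 difference, transgenic minus knockin. Medians are 0.012 for transport and other kinesins, -0.018 for cell-division genes, -0.020 for other mitosis genes, -0.059 for DNA replication genes and 0.628 for clustered histone genes.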

How the data were processed

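Total RNA of 2 transgenic and 2 knockin whole-thymus samples was read on Illumina MouseWG-6 bead arrays. The authors exported average bead signal intensity from GenomeStudio 1.9.0 without normalization, per the file headers. It has no detection p-value or control probe, so neqc could not be used. The authors' deposited value table holds processed intensity whose making is not given in the sources used here. Since no gene names could be paired with it, the alternative on member probes was not run there and only the count of calls over all probes was used, on log2(value + 8).

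Signals were corrected with normexp (offset 50), put on a log2 scale and quantile-normalised. All 45281 probes were fitted with limma 3.58.1 in R 4.3.3 (lmFit, eBayes, two-sided), and p-values were adjusted over all of them by the Benjamini-Hochberg method. Quantile normalization removes any broad shift, and the offset compresses differences of dim probes. The code was tested on simulated data. Probe names were matched to RefSeq symbols (GRCm38.p6) for 76.8% of probes and 162 of the 163 members. The probe with the highest mean stood for a gene.

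The members, roles and lists were chosen with earlier results of these data known. Members described with values follow a rule: per role, the 3 smallest p and 2 brightest genes above background on all arrays, and per list the 3 smallest p. Kif11, Kif4, Kif2c, Kifc5b, Kif18a, Ect2, Cdca3, Cdca5, Ccna2, Kif3a, Kif3b, Kif21a and Kifap3, and the dim Kif13a and Kif1c probes, were named with their values in view. The fit was repeated with cyclic loess or median scaling, with an offset of 16 or no background step, with a trend and robust priors, with a replicate block, without each array, with probe filters and with probe means. A probe counted as above background when its signal exceeded the mode of the array plus 3 SDs of the values below it. The number of arrays limits the precision of every value.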

Additional observations from a re-analysis of the deposited data

How the results depend on the processing

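No member probe passed without background correction, with an offset of 16, median scaling, cyclic loess, an intensity trend with robust priors, the replicate number as a block, a filter on dim probes, or without any single array. Their smallest adjusted p by limma ran from 0.192 to 1 there. Counts over all probes were 3 without background correction, 70 with an offset of 16, 2 with median scaling, 112 with the trend and 0 in the authors' deposited values (3299 at an unadjusted p under 0.05), and ran from 24 to 89 over the single arrays left out. With the replicate block 38 passed, and the block changed no call among the members. Deviations of same-numbered arrays correlated at r = -0.36 over 18053 probes, so crossed pairs were tried after seeing the data, which gave 364 calls over all probes and 1 among members, of Cdca8. With median scaling the median was -0.071 for member genes, -0.06 for other mitosis genes and -0.038 for all genes. Over the single arrays left out it ran from -0.041 to 0.004 for member genes, from -0.068 to -0.003 for other mitosis genes and from -0.174 to 0.045 for replication genes, so the sign of the member and replication medians rested on single arrays (transgenic replicate 1 and knockin replicate 2). The cause was not tested. Of 363 values of the 33 named genes under 11 alternatives, 8 moved by more than the spread between replicates, and 1 changed its call, that of Cdca8 with crossed pairs. Small differences of dim probes cannot be resolved with 2 arrays per group.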
